A study of Mus musculus with 77 samples.

Results

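The liver genes described here are 28 genes of cholesterol synthesis, sterol uptake and their control by the transcription factor SREBP2, listed by name from pathway knowledge, with earlier results of these data known but with no measured value in the rule. They were 28 of the 55487 genes in the count table, and all 28 were among the 14904 genes that passed the filter on low counts. Of them, 19 encode enzymes of the route from acetyl-CoA to cholesterol and 1 (Ggps1) an enzyme of a side branch, Aacs feeds acetoacetate into it, 4 encode the SREBP2 control machinery (Srebf2, Scap, Insig1 and Insig2), and 3 act in sterol transport and lipoprotein uptake (Stard4, Tmem97 and Mylip).

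SREBP2, the product of Srebf2, is made as a membrane protein of the endoplasmic reticulum. When membranes hold little sterol, the escort protein SCAP carries it to the Golgi, where proteases free the part that enters the nucleus and switches on genes of sterol synthesis and uptake, Insig1 among them. When sterol is plentiful, the INSIG proteins hold SCAP and SREBP2 back, and oxysterols activate the nuclear receptor LXR, whose targets include Mylip, a ubiquitin ligase that marks lipoprotein receptors for degradation. In liver, cholesterol in the diet is known to lower transcripts of the synthesis pathway through this loop.

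Livers came from male C57BL/6JRj mice in 10 groups, with 1 RNA library per mouse and 77 mice in all. DIO-MASH mice (diet-induced obesity with metabolic dysfunction-associated steatohepatitis) arrived at 5 to 6 weeks of age, ate the Gubra Amylin NASH (MASH) diet with 40 kcal% fat, 22% fructose, 10% sucrose and 2% cholesterol for 34 weeks, and were taken into the study by a liver biopsy 4 weeks before dosing. They then stayed on that diet with vehicle (9, 8 and 7 mice at 8, 16 and 24 weeks) or with semaglutide, a GLP-1 receptor agonist injected under the skin each day at 123 µg per kg, which was reached by day 5 (7, 8 and 8 mice), or were returned to chow with vehicle (chow reversal; 7, 8 and 8 mice). A further 7 mice were fed chow throughout and given vehicle for 24 weeks. All 3 DIO-MASH arms therefore share the 34 weeks on a diet rich in cholesterol before dosing, the chow reversal arm differs from the vehicle arm in the whole diet and not in cholesterol alone, and the mice were wild type with the disease made by diet.

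Promoter sequences are shown for 4 of the genes to let the reader see which letters the DNA before their start sites holds: Hmgcs1 and Srebf2 as the pair whose windows hold TCACCCCA, Cyp51 as an enzyme with a large change, and Insig1 as the control gene with the largest response to semaglutide. They were read from RefSeq on the GRCm38.p6 build and are written 5′ to 3′ on the gene's own strand, from 250 bases before the RefSeq start to the last base before any annotated exon. Capitals mark TCACCCCA, CCAAT (the core letters of NF-Y sites) and GGGCGG (the core letters of Sp1 sites) on either strand.
Hmgcs1, chr13:119690101-119690350, plus strand: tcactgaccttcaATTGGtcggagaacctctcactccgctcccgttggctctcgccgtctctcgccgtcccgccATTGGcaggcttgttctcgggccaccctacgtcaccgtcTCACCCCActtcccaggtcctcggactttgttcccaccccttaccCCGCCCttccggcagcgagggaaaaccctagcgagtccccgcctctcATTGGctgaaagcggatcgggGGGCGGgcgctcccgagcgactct
Cyp51, chr5:4104747-4104947, minus strand: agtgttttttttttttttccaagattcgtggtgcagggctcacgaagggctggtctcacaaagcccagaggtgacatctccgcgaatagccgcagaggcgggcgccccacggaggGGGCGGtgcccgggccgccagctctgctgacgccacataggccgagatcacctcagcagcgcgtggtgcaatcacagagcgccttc
Srebf2, chr15:82147019-82147180, plus strand: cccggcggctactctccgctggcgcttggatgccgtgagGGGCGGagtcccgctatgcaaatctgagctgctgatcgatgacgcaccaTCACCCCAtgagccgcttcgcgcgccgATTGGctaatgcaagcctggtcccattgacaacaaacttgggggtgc
Insig1, chr5:28071162-28071362, plus strand: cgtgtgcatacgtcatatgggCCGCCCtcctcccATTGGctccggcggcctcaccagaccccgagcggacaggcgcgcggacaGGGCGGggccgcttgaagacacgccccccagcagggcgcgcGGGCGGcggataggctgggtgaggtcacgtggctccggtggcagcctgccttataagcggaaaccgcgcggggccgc

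RefSeq windows from 250 bases before to 50 after the start were matched for 24 of the 28 genes. Fdps, Fdft1, Sqle and Stard4 were not matched. Motifs were counted on both strands of these 300 bases. Some genes had windows at more than 1 start (Dhcr7, Scap and Insig2 among them), and a gene was counted if any of its windows held the motif. CCAAT was in 21 of the 24 genes, against 41.1% of 27025 genes with a window and 42.8% of those among them that were tested. The 3 genes without it were Acat2, Scap and Aacs. GGGCGG was also in 21 of 24 genes, against 38.2% of all genes with a window but 65.2% of the tested ones. It was missing from Pmvk, Ggps1 and Aacs. The sterol element SRE-1, searched with 1 letter left free, was in 0 of 24 genes (0.27% of all). With 2 letters left free it was in Nsdhl (0.622% of all). TCACCCCA was in Hmgcs1 and Srebf2 (1.77% of all). This shorter string was chosen after the sequences had been seen and is without overlap with CCAAT or GGGCGG. These counts describe letters in a window and no binding was measured.

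Total counts ran from 8883190 to 37631125 per library (median 16406976). Levels are given as CPM (counts scaled to a common library size with TMM factors, which correct for differing makeup of the libraries), whose factors ranged from 0.793 to 1.31, and differences as log2 fold changes from 1 edgeR fit of all 77 libraries. Calls are at an edgeR adjusted p under 0.05 over all 14904 genes. Scaling to library totals alone, without TMM, moved the median log2 fold change of all genes from near 0 to 0.40 for vehicle against chow, to -0.31, -0.25 and -0.26 for chow reversal and to -0.13, -0.18 and -0.24 for semaglutide at 8, 16 and 24 weeks, so small changes are relative to the scale used. On that scale 7776 of 8663 called genes were higher in vehicle than in chow-fed mice, and 154 of 1208, 357 of 2724 and 510 of 4850 called genes were higher with semaglutide, where with TMM it was 3849 of 7121 for vehicle against chow and 334 of 857, 960 of 1824 and 1604 of 3625 for semaglutide. For chow reversal the higher calls were 2117 of 4782, 1797 of 4207 and 2530 of 5379 with TMM and 667 of 6603, 593 of 5662 and 687 of 6140 with library totals alone. By library number, 1 vehicle library of 8 weeks stood in the place of a chow reversal library, and its score over the 28 genes was -0.64, inside the range of the vehicle libraries (-1.19 to -0.28). Another 3 semaglutide libraries carried numbers of a second series. The tissue is bulk liver, so fewer cells of a type and less RNA per cell cannot be told apart.

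Mice kept on the MASH diet had far lower transcripts of almost the whole cholesterol pathway than chow-fed mice at 24 weeks, and after a return to chow none of the 28 genes was called against chow-fed mice. Against chow, vehicle mice were lower in 24 of the 28 genes and higher in Mylip, where 22% and 25.8% of all genes tested were lower and higher (47.8% called in all). The median log2 fold change of the 28 genes was -2.11, against -0.02 over all genes tested. The synthesis route moved along its whole length. From acetyl-CoA to farnesyl diphosphate, 7 of 8 genes were lower (Acat2 -1.42, Hmgcs1 -2.96, Mvk -1.92, Pmvk -2.28, Mvd -2.81, Idi1 -4.32 and Fdps -2.60 on the log2 scale), and Ggps1, which makes geranylgeranyl diphosphate for protein prenylation, stood at -0.12 and was not called. All 3 enzymes from farnesyl diphosphate to lanosterol were lower (Fdft1 -2.13, Sqle -6.09, Lss -2.53). So were all 9 that turn lanosterol into cholesterol, from Msmo1 (-3.45) and Cyp51 (-3.31) to Ebp (-1.25) and Lbr (-0.38, which under library totals alone stood at 0.05).

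The control genes differed among themselves. Srebf2 was lower at a log2 fold change of -1.03 (SE 0.11), Scap at -1.24 and Insig1 at -2.09, while Insig2 stood at -0.16 and was not called. Of the transport and uptake genes, Stard4, which moves cholesterol between membranes, was lower at -1.88, Tmem97, a protein of endoplasmic reticulum and lysosome membranes, at -0.49 (a call lost under library totals alone, as was that for reversal at 24 weeks), and Mylip was higher at 1.12 (SE 0.17, edgeR adjusted p = 1.08e-07). Aacs, which activates acetoacetate for lipid synthesis, stood at -0.60 and was not called. In 22 genes every vehicle mouse lay below every chow-fed mouse, which held for 8.43% of all genes tested. In Mylip every vehicle mouse lay above (13.9% of all genes).

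Chow reversal against vehicle on the MASH diet raised 24 genes and lowered 2 at 8 weeks (14.2% and 17.9% of all genes, 32.1% in all), and raised 25 and lowered 1 at both 16 weeks (12.1% and 16.2%, 28.2% in all) and 24 weeks (17% and 19.1%, 36.1% in all). The median log2 fold change of the 28 genes was 1.64, 1.91 and 1.87 at these times, against medians between -0.03 and 0.04 over all genes tested. Averaged over the 3 times, 25 genes were higher and 2 lower (26.2% and 28% of all genes, 54.2% in all). Mylip was the gene that was lower at all 3 times, and Insig2 was lower at 8 weeks. Ggps1 was not called at any time, though under library totals alone it was called lower at 8 weeks. Aacs was called at 16 and 24 weeks (0.84 and 0.83) and not at 8 weeks (0.47), but both calls were lost under library totals alone, and 8 weeks was called with only the groups compared. Every reversal mouse lay above every vehicle mouse of its time in 23 genes at 8 weeks (4.53% of all genes), 23 at 16 weeks (2.5%) and 21 at 24 weeks (1.76%).

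Semaglutide on the unchanged MASH diet moved these genes by smaller amounts, with nearly all calls at 16 and 24 weeks. Against vehicle it raised Ebp and lowered Tmem97 at 8 weeks (1 of 28 in each direction, where 2.24% and 3.51% of all genes were called, 5.75% in all), raised 12 of 28 at 16 weeks (6.44% of all genes higher, 12.2% in all) and raised 9 of 28 at 24 weeks (10.8% higher, 24.3% in all), with 0 lower at 16 and 24 weeks (5.8% and 13.6% of all genes). At an unadjusted p under 0.05, edgeR had Mylip lower at 16 weeks and 0 genes lower at 24 weeks, and DESeq2 called 13 genes higher at 16 weeks, 10 at 24 weeks and 0 lower at either time. The median log2 fold change of the 28 was -0.06, 0.42 and 0.28, against medians between -0.01 and 0 over all genes tested. Under library totals alone it was -0.20, 0.25 and 0.06, against -0.13, -0.18 and -0.24 over all genes. The comparisons of semaglutide and of chow reversal with vehicle share the vehicle mice.

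**Figure D1:**
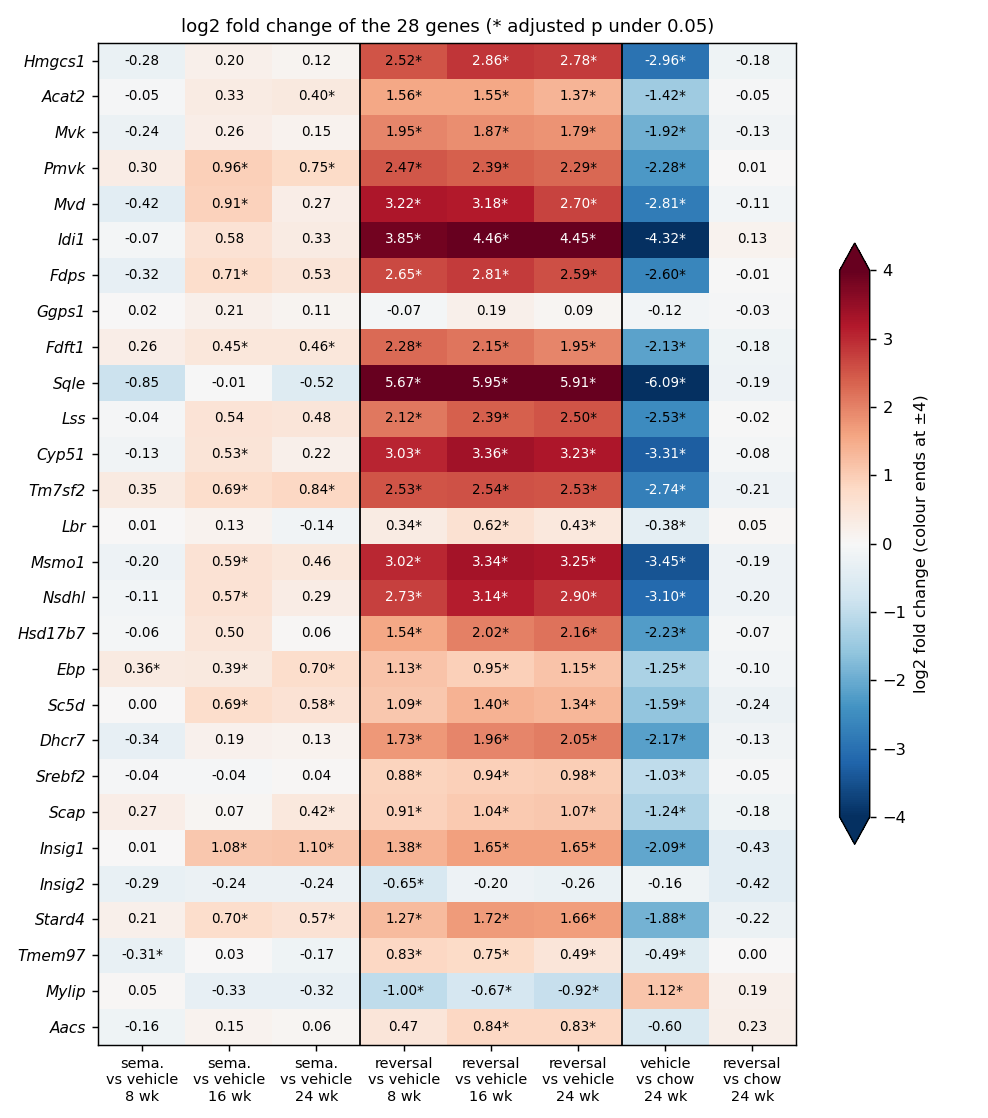
Log2 fold changes (numbers and colour) of the 28 genes (rows, in pathway order) in 8 comparisons (columns), with a star at an edgeR adjusted p under 0.05. The chow reversal columns hold 24 to 25 rises each, the vehicle against chow column 24 falls, the semaglutide columns 1, 12 and 9 rises, and the reversal against chow column no star.

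Sqle, the squalene monooxygenase that puts oxygen on squalene, differed more between the diets than any other of the 28 genes. In chow-fed mice, Sqle lay between 99.6 and 225 CPM (median 103), and with vehicle on the MASH diet between 0.492 and 4.14 CPM (median 1.73) at 8 weeks, 0.692 and 4.26 (median 1.199) at 16 weeks and 1.34 and 2.44 (median 1.96) at 24 weeks. With semaglutide, Sqle ranged from 0.675 to 2.09 CPM (median 0.864), 0.427 to 5.38 (median 0.892) and 0.457 to 4.94 (median 0.757) at these times. After chow reversal, Sqle ranged from 86.7 to 131 CPM (median 100.1), 68.5 to 149 (median 108) and 65.9 to 176 (median 99.6). The chow-fed and reversal mice lay in 1 range, far above that of the mice on the MASH diet and with no overlap. On chow reversal the log2 fold change was 5.67, 5.95 and 5.91 (SE 0.36 to 0.40), a 50.7-fold to 61.98-fold rise. With semaglutide it was -0.85, -0.01 and -0.52, with edgeR adjusted p of 0.228, 0.992 and 0.380. At 24 weeks 7 of the 8 semaglutide mice lay below every vehicle mouse and the eighth lay above every one.

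Idi1, the isopentenyl diphosphate isomerase of the mevalonate route, had the next largest difference between the diets. In chow-fed mice, Idi1 lay between 283 and 424 CPM (median 338), and with vehicle on the MASH diet between 10.4 and 38.5 CPM (median 24.1) at 8 weeks, 12.5 and 22.8 (median 16.03) at 16 weeks and 9.95 and 22.9 (median 17.8) at 24 weeks. With semaglutide, Idi1 ranged from 13.1 to 33.6 CPM (median 21.4), 13.9 to 53.99 (median 20.7) and 11.1 to 45.2 (median 19.8) at these times. After chow reversal, Idi1 ranged from 259 to 391 CPM (median 341), 199 to 533 (median 329) and 212 to 914 (median 299). The lowest reversal mouse (199 CPM) lay far above the highest mouse on the MASH diet (53.99 CPM). Reversal gave a log2 fold change of 3.85 (SE 0.26) at 8 weeks and 4.45 (SE 0.29) at 24 weeks. The semaglutide value at 16 weeks, 0.58 (edgeR adjusted p = 0.105), did not pass.

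Hmgcs1 condenses acetoacetyl-CoA with acetyl-CoA at the entry to the mevalonate route. In chow-fed mice, Hmgcs1 lay between 380.1 and 909 CPM (median 608), and with vehicle on the MASH diet between 79.9 and 138 CPM (median 114) at 8 weeks, 77.8 and 109 (median 87.2) at 16 weeks and 68.5 and 106 (median 81.6) at 24 weeks. With semaglutide, Hmgcs1 ranged from 60.7 to 116 CPM (median 99.1), 62.3 to 204 (median 95.6) and 54.5 to 124 (median 92.2) at these times. After chow reversal, Hmgcs1 ranged from 505 to 789 CPM (median 614), 338 to 1024 (median 619) and 448 to 732 (median 555). Semaglutide and vehicle mice overlapped at each time, and the log2 fold changes of -0.28, 0.20 and 0.12 were not called, with 95% confidence intervals of -0.62 to 0.07, -0.14 to 0.54 and -0.23 to 0.47. Chow reversal raised it 5.73-fold, 7.27-fold and 6.89-fold.

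Fdft1, squalene synthase, joins a pair of farnesyl diphosphates and commits them to sterols. In chow-fed mice, Fdft1 lay between 164 and 288 CPM (median 234), and with vehicle on the MASH diet between 42.1 and 61.8 CPM (median 50.4) at 8 weeks, 45.4 and 64.97 (median 49.3) at 16 weeks and 42.4 and 68.7 (median 49.5) at 24 weeks. With semaglutide, Fdft1 ranged from 55.4 to 67.5 CPM (median 59.9), 54.9 to 86.4 (median 70.5) and 59.3 to 98.05 (median 76.4) at these times. After chow reversal, Fdft1 ranged from 197 to 296 CPM (median 242), 148 to 335 (median 243) and 166 to 244 (median 206). It also rose with semaglutide, by a log2 fold change of 0.45 (SE 0.12) at 16 weeks and 0.46 (SE 0.12) at 24 weeks, against 2.15 and 1.95 with chow reversal. Both semaglutide calls were lost under library totals alone. In 5 of 8 semaglutide mice at either time the level was above every vehicle mouse. Fdft1 overlaps Ctsb on the opposite strand, which was at a mean of 901 CPM over the 77 mice against 127 for Fdft1, and as the strand setting of the counting is not stated, reads of the 2 genes cannot be told apart where they overlap.

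Cyp51, the lanosterol demethylase, opens the last stretch of the route. In chow-fed mice, Cyp51 lay between 223 and 302 CPM (median 278), and with vehicle on the MASH diet between 15.3 and 48.5 CPM (median 31.1) at 8 weeks, 20.1 and 32.1 (median 23.8) at 16 weeks and 22.5 and 36.2 (median 27.7) at 24 weeks. With semaglutide, Cyp51 ranged from 18.7 to 48.6 CPM (median 24.5), 22.2 to 71.6 (median 30.7) and 25.1 to 55.4 (median 27.9) at these times. After chow reversal, Cyp51 ranged from 209 to 291 CPM (median 249.6), 154 to 336 (median 255.8) and 197 to 435 (median 231). The reversal and MASH diet ranges did not overlap. Semaglutide gave 0.53 (SE 0.19, edgeR adjusted p = 0.0468) at 16 weeks, close to the threshold, and 0.22 (edgeR adjusted p = 0.430) at 24 weeks. The call at 16 weeks was lost in 11 of the 16 fits that each left out 1 library of that time, and under library totals alone.

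Tm7sf2 and Lbr both encode a sterol reductase of the step after Cyp51. In chow-fed mice, Tm7sf2 lay between 158 and 228 CPM (median 174), and with vehicle on the MASH diet between 21.7 and 34.3 CPM (median 30.4) at 8 weeks, 23.6 and 34.8 (median 29.4) at 16 weeks and 24.5 and 30.4 (median 27.03) at 24 weeks. With semaglutide, Tm7sf2 ranged from 27.4 to 53.9 CPM (median 36.3), 33.9 to 71.2 (median 44.3) and 32.1 to 63.01 (median 47.9) at these times. After chow reversal, Tm7sf2 ranged from 131 to 213 CPM (median 168), 142 to 193 (median 175) and 125 to 194 (median 158). It was the 1 gene of the 28 in which every semaglutide mouse of 24 weeks lay above every vehicle mouse (1.15% of all genes tested). Its log2 fold changes with semaglutide were 0.35 (not called), 0.69 (SE 0.12) and 0.84 (SE 0.13, edgeR adjusted p = 1.07e-06), and with reversal 2.53, 2.54 and 2.53. Lbr, which is also a protein of the nuclear envelope, changed with reversal by 0.34, 0.62 and 0.43, calls that were lost under library totals alone, and with semaglutide by 0.01, 0.13 and -0.14, none called.

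Msmo1 removes methyl groups from sterol intermediates. In chow-fed mice, Msmo1 lay between 249 and 382 CPM (median 298), and with vehicle on the MASH diet between 18.9 and 51.9 CPM (median 35.5) at 8 weeks, 21.9 and 37.2 (median 26.2) at 16 weeks and 24.8 and 31.2 (median 28.8) at 24 weeks. With semaglutide, Msmo1 ranged from 17.9 to 44.7 CPM (median 28.6), 31.1 to 56.7 (median 41.1) and 19.7 to 62.6 (median 38.1) at these times. After chow reversal, Msmo1 ranged from 250.1 to 332 CPM (median 299), 182 to 414 (median 267) and 195 to 353 (median 288). It rose with semaglutide by 0.59 at 16 weeks (edgeR adjusted p = 0.0178), when 6 of 8 mice lay above every vehicle mouse, a call that was lost with the library number set as a block and under library totals alone, and stood at 0.46 at 24 weeks (edgeR adjusted p = 0.0516). Nsdhl acts on the same methyl groups. In chow-fed mice, Nsdhl lay between 90.9 and 136 CPM (median 111), and with vehicle on the MASH diet between 7.88 and 21.5 CPM (median 13.9) at 8 weeks, 8.21 and 14.5 (median 12.7) at 16 weeks and 9.50 and 15.9 (median 14.3) at 24 weeks. With semaglutide, Nsdhl ranged from 8.52 to 22.1 CPM (median 13.01), 13.4 to 40.2 (median 15.6) and 10.9 to 27.7 (median 15.5) at these times. After chow reversal, Nsdhl ranged from 79.4 to 126 CPM (median 99.6), 73.6 to 154 (median 106) and 72.9 to 128 (median 101). With semaglutide it was called at 16 weeks (0.57), when 1 mouse stood far above the others. This call was lost without that mouse (replicate 2), without vehicle replicate 4 or under library totals alone.

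Srebf2, the gene of SREBP2 itself, differed between the diets, and no difference between semaglutide and vehicle was called. In chow-fed mice, Srebf2 lay between 58.1 and 79.7 CPM (median 68.3), and with vehicle on the MASH diet between 28.5 and 44.5 CPM (median 38.3) at 8 weeks, 28.1 and 40.4 (median 35.8) at 16 weeks and 31.3 and 36.2 (median 34.2) at 24 weeks. With semaglutide, Srebf2 ranged from 29.3 to 43.4 CPM (median 36.5), 21.98 to 53.9 (median 33.3) and 23.96 to 42.9 (median 35.3) at these times. After chow reversal, Srebf2 ranged from 61.3 to 74.5 CPM (median 68.4), 61.2 to 73.7 (median 66.3) and 53.1 to 76.4 (median 66.4). Every chow-fed and reversal mouse lay at or above 53.1 CPM, and the mice on the MASH diet lay below that, except 1 semaglutide mouse of 16 weeks at 53.9 CPM. Chow reversal raised it 1.84-fold, 1.92-fold and 1.97-fold. The semaglutide log2 fold changes were -0.04, -0.04 and 0.04, with 95% confidence intervals of -0.25 to 0.17, -0.24 to 0.17 and -0.18 to 0.25, which do not reach the change seen with chow reversal. Under library totals alone the mean semaglutide effect on Srebf2 was called lower, as were those on Sqle, Insig2 and Mylip.

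Scap encodes the sterol sensor that escorts SREBP2. In chow-fed mice, Scap lay between 103 and 173 CPM (median 163), and with vehicle on the MASH diet between 62.1 and 93.3 CPM (median 67.8) at 8 weeks, 62.3 and 81.2 (median 68.1) at 16 weeks and 56.4 and 70.8 (median 59.3) at 24 weeks. With semaglutide, Scap ranged from 70.1 to 99.3 CPM (median 83.2), 35.8 to 104 (median 78.5) and 47.8 to 99.3 (median 87.1) at these times. After chow reversal, Scap ranged from 122 to 154 CPM (median 126), 123 to 167 (median 142) and 76.5 to 173 (median 136). Semaglutide raised it at 24 weeks by 0.42 (SE 0.14, edgeR adjusted p = 0.0164), when 7 of 8 mice lay above every vehicle mouse and 1 lay below every one. This call was lost under library totals alone. Reversal raised Scap by 0.91, 1.04 and 1.07.

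Insig1, whose protein retains SCAP and whose transcript is itself an SREBP target, showed the largest semaglutide effect of the 28 genes at 16 and 24 weeks. In chow-fed mice, Insig1 lay between 329.8 and 770.4 CPM (median 525), and with vehicle on the MASH diet between 118 and 447 CPM (median 224) at 8 weeks, 81.2 and 222 (median 152) at 16 weeks and 94.3 and 213 (median 114) at 24 weeks. With semaglutide, Insig1 ranged from 153 to 476 CPM (median 168), 180.0 to 535 (median 307) and 159 to 407 (median 254) at these times. After chow reversal, Insig1 ranged from 479 to 781 CPM (median 574), 339 to 626 (median 492.8) and 127 to 782 (median 395). Semaglutide changed it by 0.01 at 8 weeks, where it was not called, by 1.08 (SE 0.25, edgeR adjusted p = 0.00289) at 16 weeks and by 1.10 (SE 0.26, edgeR adjusted p = 0.00119) at 24 weeks. At 24 weeks 7 of 8 semaglutide mice lay above every vehicle mouse, and the lowest reversal mouse (replicate 8) lay below every chow-fed mouse and within the vehicle range. Over the same times the mean of the vehicle mice went from 238 ± 98.8 (SD, n = 9) to 155 ± 51.2 (n = 8) and 128 ± 42.96 CPM (n = 7), and that of the semaglutide mice from 239.9 ± 119 (n = 7) to 327 ± 126 (n = 8) and 273 ± 84.01 (n = 8). The change in the effect of semaglutide from 8 to 24 weeks was 1.09 (SE 0.36, edgeR adjusted p = 0.704) and did not pass.

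Insig2 encodes the other INSIG protein, whose liver transcript is known to follow insulin and fasting more than SREBP2. In chow-fed mice, Insig2 lay between 107 and 244 CPM (median 207), and with vehicle on the MASH diet between 175 and 282 CPM (median 214) at 8 weeks, 103 and 275 (median 184) at 16 weeks and 106 and 226 (median 161) at 24 weeks. With semaglutide, Insig2 ranged from 96.7 to 244 CPM (median 179), 78.3 to 240.1 (median 144) and 87.5 to 160.4 (median 137) at these times. After chow reversal, Insig2 ranged from 106 to 158 CPM (median 142), 138 to 190.0 (median 159.6) and 89.5 to 187 (median 139.9). Most groups overlapped, and the 1 call for either treatment at a single time was its fall at 8 weeks of chow reversal (-0.65, SE 0.19, edgeR adjusted p = 0.00708), when every reversal mouse lay below every vehicle mouse (6.56% of all genes tested).

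Stard4 rose with chow reversal and, on the TMM scale, with semaglutide at 16 and 24 weeks. In chow-fed mice, Stard4 lay between 118 and 163 CPM (median 155), and with vehicle on the MASH diet between 33.3 and 67.03 CPM (median 49.1) at 8 weeks, 23.8 and 51.7 (median 39.5) at 16 weeks and 18.3 and 56.8 (median 41.5) at 24 weeks. With semaglutide, Stard4 ranged from 40.4 to 74.1 CPM (median 64.3), 41.2 to 89.3 (median 63.4) and 31.1 to 88.9 (median 56.9) at these times. After chow reversal, Stard4 ranged from 90.1 to 149 CPM (median 127), 93.6 to 165 (median 128) and 60.4 to 182 (median 123). The log2 fold change with semaglutide was 0.21 (not called), 0.70 (SE 0.19) and 0.57 (SE 0.20), and with reversal 1.27, 1.72 and 1.66. The call at 24 weeks of semaglutide was lost in 5 of 15 fits that left out 1 library each, and with only the groups compared. Both semaglutide calls were lost under library totals alone.

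Tmem97 was lower with semaglutide at 8 weeks. In chow-fed mice, Tmem97 lay between 79.3 and 116 CPM (median 109), and with vehicle on the MASH diet between 56.4 and 74.9968 CPM (median 67.8) at 8 weeks, 60.8 and 80.5 (median 67.1) at 16 weeks and 60.7 and 91.2 (median 75.2) at 24 weeks. With semaglutide, Tmem97 ranged from 46.8 to 59.8 CPM (median 50.9), 48.6 to 89.9 (median 66.9) and 60.8 to 73.1 (median 64.5) at these times. After chow reversal, Tmem97 ranged from 101 to 139 CPM (median 117), 96.7 to 125 (median 114) and 85.9 to 131 (median 103). At 8 weeks 6 of 7 semaglutide mice lay below every vehicle mouse (-0.31, SE 0.09, edgeR adjusted p = 0.0326), while the reversal mice of that time lay above both (0.83). The call at 8 weeks was lost in 7 of 16 fits that left out 1 library each. At 16 and 24 weeks of semaglutide it stood at 0.03 and -0.17 and was not called.

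Mylip moved opposite to the synthesis genes between the diets. In chow-fed mice, Mylip lay between 4.77 and 8.85 CPM (median 6.49), and with vehicle on the MASH diet between 6.50 and 17.4 CPM (median 13.2) at 8 weeks, 8.28 and 17.5 (median 14.7) at 16 weeks and 9.87 and 16.3 (median 14.5) at 24 weeks. With semaglutide, Mylip ranged from 11.8 to 14.3 CPM (median 14.1), 7.69 to 16.9 (median 9.51) and 7.603 to 14.3 (median 11.1) at these times. After chow reversal, Mylip ranged from 5.43 to 9.30 CPM (median 5.88), 5.29 to 11.3 (median 8.501) and 5.60 to 10.02 (median 7.404). Reversal lowered it by 1.00, 0.67 and 0.92 on the log2 scale. Semaglutide gave 0.05, -0.33 and -0.32, none called, though both later values were called under library totals alone. At 24 weeks semaglutide mice were still above reversal mice (0.60, edgeR adjusted p = 0.00724).

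**Figure D2:**
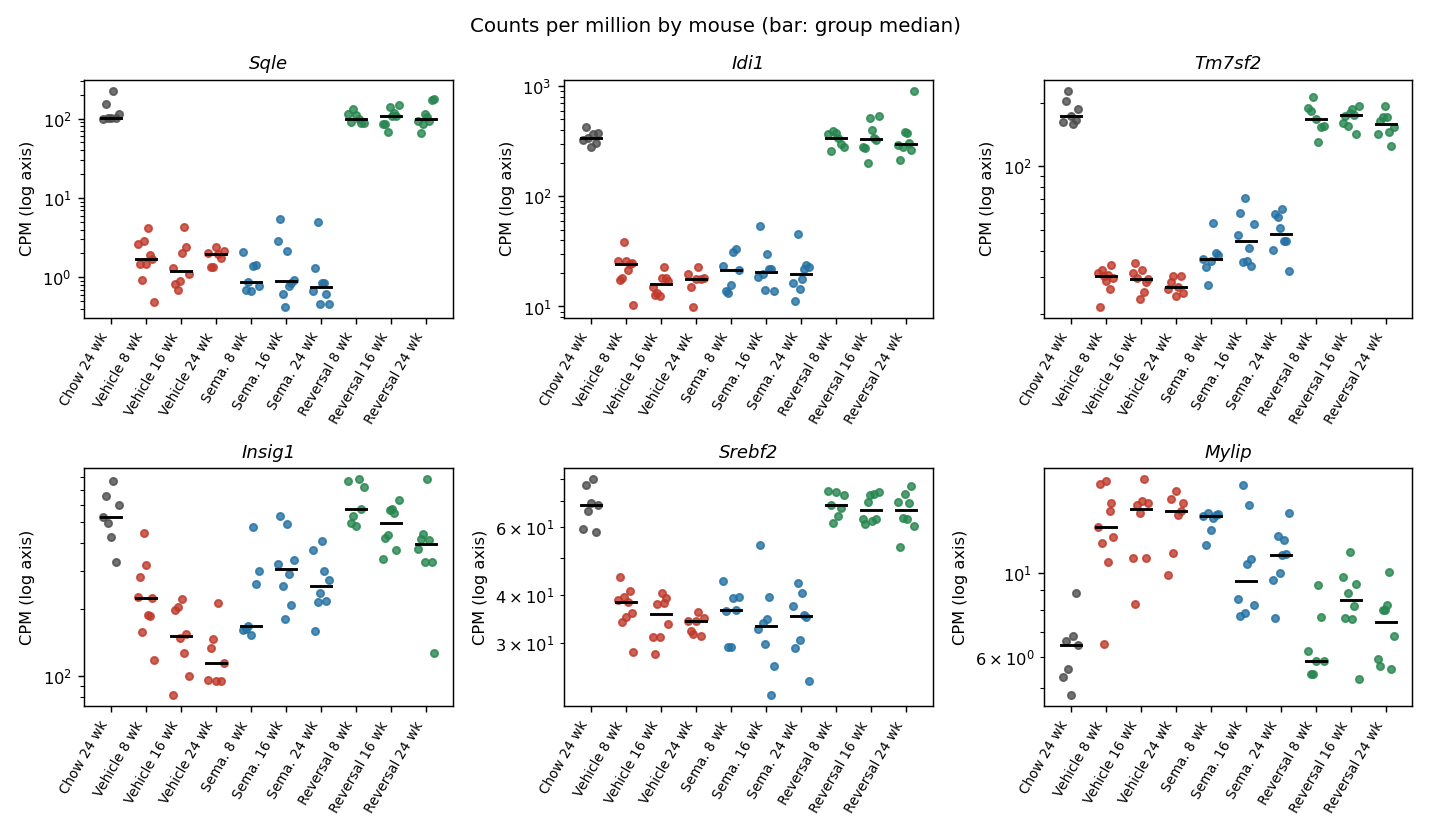
CPM (log axis) of Sqle, Idi1, Tm7sf2, Insig1, Srebf2 and Mylip in each of 77 mice (points) by group (x axis), with the group median as a bar. Chow-fed and reversal mice lie apart from the MASH diet mice for Sqle and Idi1, while for Insig1 1 reversal mouse of 24 weeks, at 127 CPM, lies within the vehicle range. At 24 weeks 7 of 8 semaglutide mice lie below every vehicle mouse for Sqle, and 8 and 7 of 8 lie above every one for Tm7sf2 and Insig1.

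The genes that semaglutide raised lay at several steps of the route. At 16 weeks they were Pmvk (0.96), Mvd (0.91), Fdps (0.71), Fdft1, Cyp51, Tm7sf2, Msmo1, Nsdhl, Ebp (0.39), Sc5d (0.69), Insig1 and Stard4. At 24 weeks they were Acat2 (0.40), Pmvk (0.75), Fdft1, Tm7sf2, Ebp (0.70), Sc5d (0.58), Scap, Insig1 and Stard4. Pmvk, Fdft1, Tm7sf2, Ebp, Sc5d, Insig1 and Stard4 were called at both times, and Ebp, the sterol isomerase, at all 3 (0.36 at 8 weeks, edgeR adjusted p = 0.0379). The calls of Mvd and Fdps at 16 weeks and that of Ebp at 8 weeks were each lost in 10 of the 16 fits that left out 1 library of the time. Averaged over the 3 times, 11 genes were higher and Tmem97 lower (19.7% and 21.7% of all genes, 41.4% in all), with a median of 0.24 (0.06 under library totals alone). Idi1, Sqle, Hmgcs1 and Srebf2 were in none of these lists. Under library totals alone the split was 0 higher and 1 lower at 8 weeks, 4 and 1 at 16 weeks, 4 and 2 at 24 weeks, and 7 and 5 on average, with Pmvk, Tm7sf2, Sc5d and Insig1 the genes still higher at 16 weeks and Pmvk, Tm7sf2, Ebp and Insig1 at 24 weeks. On that scale 49.8% of all genes were called in the mean effect, and 955 of these 7419 were higher.

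Hepatocyte markers moved in the same comparisons. Of all genes tested, 25.8% were higher and 22% lower in vehicle than in chow-fed mice, and 26.2% and 28% in the mean reversal effect. With semaglutide 2.24%, 6.44% and 10.8% of all genes were higher and 3.51%, 5.8% and 13.6% lower at 8, 16 and 24 weeks. All 10 of 10 (Alb, Ttr and Apoa1 among them) were lower in vehicle than in chow-fed mice, with a median of -1.10, all 10 were higher on average with chow reversal (0.79), and 4, 6 and 8 of 10 were higher with semaglutide at 8, 16 and 24 weeks (medians 0.51, 0.50 and 0.71). Under library totals alone 8 of 10 were lower in vehicle mice, 9 were higher with reversal, and 3, 2 and 6 were higher with semaglutide (medians 0.38, 0.34 and 0.48). Their summed level was 119926 to 151937 CPM in chow-fed mice, 50322 to 66313 in vehicle mice, 72391 to 126505 in semaglutide mice and 82979 to 118957 in reversal mice at 24 weeks. Macrophage markers went the other way, from a sum of 60.1 to 219 CPM in chow-fed to 376 to 563 in vehicle mice, with 6 of 7 called higher, and 0, 3 and 4 of 7 called lower with semaglutide at the 3 times (1, 4 and 5 under library totals alone). Stellate cell markers summed to 56.7 to 77.9951 CPM in chow-fed mice, 211 to 314 with vehicle, 95.9 to 203 with semaglutide and 78.98 to 173 after reversal. In vehicle against chow-fed mice 6 of these 6 were called higher. With semaglutide 2, 1 and 3 of 6 were called lower at 8, 16 and 24 weeks, and 1 was called higher at 16 weeks. In vehicle against chow-fed mice, cholangiocyte markers had 4 of 6 higher and 1 lower, endothelial markers 3 of 5 higher and T and B cell markers 3 of 5 higher. Neutrophil markers had 0 of 3 called (2 higher under library totals alone) and erythroid markers 1 of 3 lower. With so few markers per list, and 47.8% of all genes called in that comparison, these counts are not read as a result about these cell types. Of the 4 adipocyte and 4 exocrine pancreas markers, 1 each passed the filter, and the pancreas markers summed to at most 9.37 CPM in any of these groups. The part of these shifts in the results on sterol genes was not tested. In each comparison with a semaglutide call, the median of the hepatocyte markers was above that of the 28 genes. In vehicle against chow the 28 genes lay lower (-2.11) than the hepatocyte markers.

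A score per mouse, the mean of the 28 genes' log2 CPM minus each gene's mean over all mice, places the groups on 1 axis. Chow-fed mice scored 0.87 to 1.37 (median 1.12), and the reversal mice 0.96 to 1.28, 0.72 to 1.47 and 0.92 to 1.2 at 8, 16 and 24 weeks. Vehicle mice had medians of -0.64, -0.83 and -0.86, and semaglutide mice of -0.82, -0.65 and -0.66. The highest semaglutide mouse of 16 weeks reached 0.24, between the diets, and that of 24 weeks -0.05, with the other mice of these groups at -0.28 and -0.49 or below. The 3 libraries of the second number series had the lowest or next lowest scores of their groups (-0.82, -0.81 and -0.84). As a share of all counts, the 28 genes took a median of 0.469% in chow-fed mice, 0.162% with vehicle, 0.186% with semaglutide and 0.474% after reversal at 24 weeks.

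**Figure D3:**
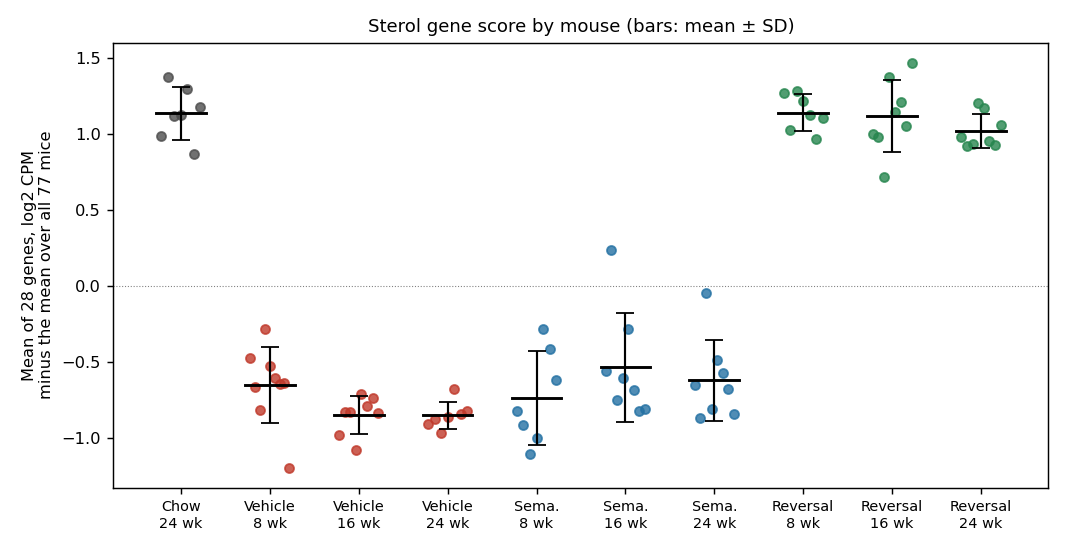
Score of the 28 genes (y axis, mean log2 CPM minus the mean over 77 mice) for each mouse (points) by group (x axis), with mean and SD as bars. Chow-fed and reversal mice lie at 0.72 or above, mice on the MASH diet lie below 0 except 1 semaglutide mouse of 16 weeks at 0.24, and vehicle and semaglutide mice overlap at each time.

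Semaglutide and chow reversal left different levels. In their direct comparison 23 of 28 genes were lower with semaglutide at each time, with Mylip higher at 8 and 24 weeks (2.64% of all genes lower, 3.52% higher and 6.16% in all at 8 weeks, 3.56%, 6.24% and 9.8% at 16 weeks, 8.72%, 7.77% and 16.5% at 24 weeks). The median log2 difference was -1.81, -1.48 and -1.51. The gap was widest for Sqle (-6.42 at 24 weeks) and narrowest among the called genes for Ebp (-0.45). Insig1 was called at 8 weeks (-1.37) but at 16 and 24 weeks stood at -0.57 and -0.56, with edgeR adjusted p of 0.135 and 0.106 and 95% confidence intervals of -1.06 to -0.08 and -1.04 to -0.07. Every semaglutide mouse lay below every reversal mouse in 23 genes at 8 weeks (2.41% of all genes), 16 at 16 weeks (0.53%) and 19 at 24 weeks (0.362%).

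Set against chow-fed mice at 24 weeks, reversal mice had 0 of 28 genes called (5.72% of all genes were higher, 0.913% lower and 6.63% called in all), and 1 gene, Insig2, at an unadjusted p under 0.05 (-0.42, edgeR adjusted p = 0.225). DESeq2 also called 0 of 28. The 28 values ran from -0.43 (Insig1) to 0.23 (Aacs), and their 95% confidence intervals stayed between -0.93 and 0.84, and differences inside these intervals were not detectable with 7 and 8 mice. Semaglutide mice had 24 genes lower than chow-fed mice and Mylip higher (13.5% and 17.9% of all genes, 31.4% in all), with a median of -1.60 against -2.11 for vehicle. Over the 25 genes called between vehicle and chow, the semaglutide effect amounted to a median of 13.5% of that log2 distance, from -36.9% (Lbr) to 55.7% (Ebp), with Insig1 at 52.5%, Sc5d at 36.3%, Scap at 34.0% and Sqle at -8.504%. The reversal effect amounted to a median of 94.4%, from 79.2% (Insig1) to 114% (Lbr). These shares use the same vehicle mice in both terms and are given as a description.

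**Figure D4:**
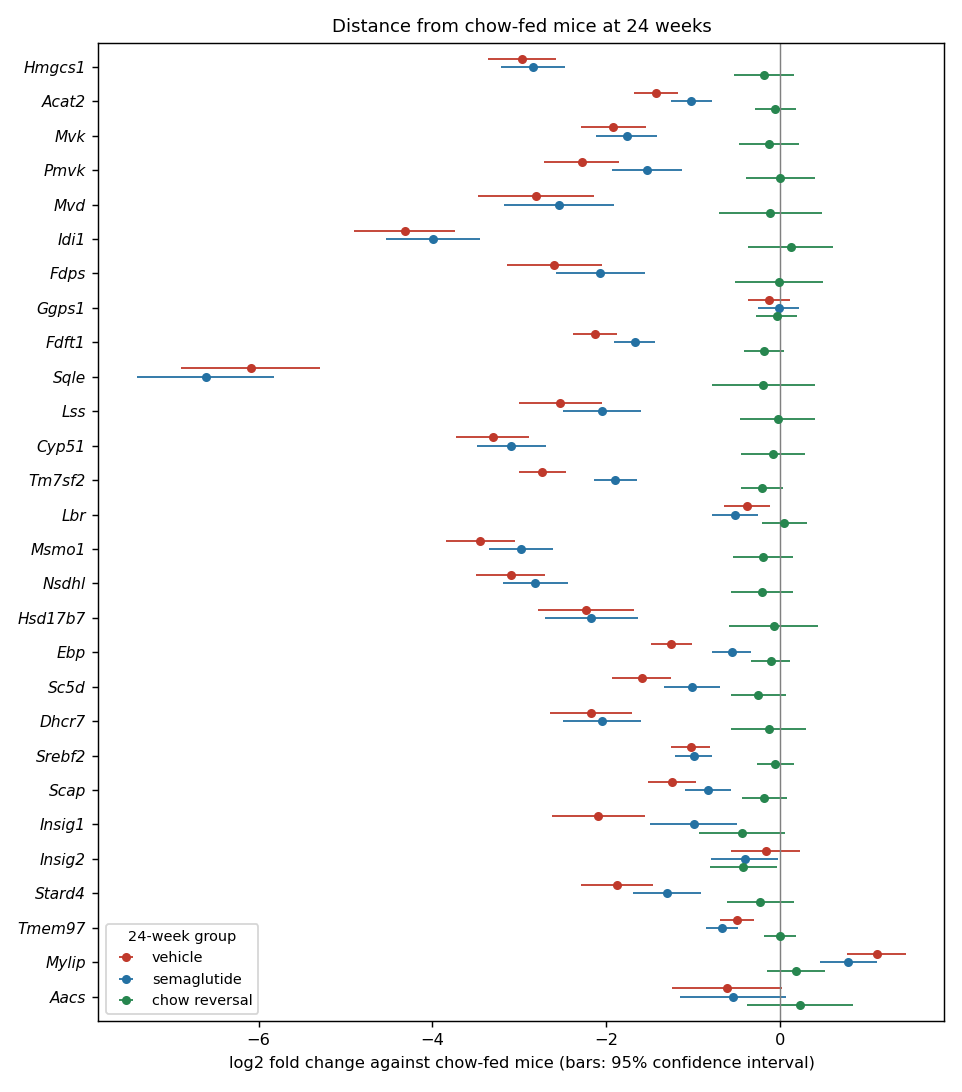
Log2 fold change against chow-fed mice (x axis, with 95% confidence intervals) of the 28 genes (rows) in vehicle, semaglutide and reversal mice at 24 weeks. The reversal points lie between -0.43 and 0.23, and the semaglutide points lie near the vehicle points, moved toward 0 most for Insig1, Tm7sf2 and Pmvk.

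No change over time on treatment passed the edgeR test. In vehicle mice, 0 of 28 genes were called between 24 and 8 weeks (0.731% of all genes higher, 0.0604% lower and 0.792% in all), with 5 at an unadjusted p under 0.05, of which Insig1 (-0.90, edgeR adjusted p = 0.0706) and Sc5d (-0.55, 0.0931) were the strongest, and DESeq2 called Insig1 (-0.89, adjusted p = 0.0357). The change of the semaglutide effect from 8 to 24 weeks was called for 0 of 28 genes (0% of all genes higher, 0.0604% lower and 0.0604% in all), with 7 higher at an unadjusted p under 0.05 and 0 called by DESeq2, so a later start of the semaglutide rises is not shown by this test. The change of the reversal effect was called for 0 of 28 (0.00671% of all genes higher, 0.208% lower and 0.215% in all), with Fdft1 (-0.33) and Tmem97 (-0.34) at an unadjusted p under 0.05 and 0 called by DESeq2.

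Compared per length, as mean CPM per kilobase of the longest transcript, the highest levels in chow-fed mice were those of Fdps (415), Insig1 (201), Hmgcs1 (187) and Ebp (158), and the lowest those of Ggps1 (1.80), Mylip (2.07) and Lbr (2.73). On the MASH diet with vehicle at 24 weeks the order of levels changed. Sqle went from rank 16 (46.6) to rank 28 (0.676), Idi1 from rank 8 to rank 21, and Insig2 from rank 12 to rank 3 at nearly the same level (67.3 and 60.2). These levels and ranks depend on the length used. The longest transcript of Idi1 has 3027 bases against a median of 741, and that of Scap 4227 against 597. Acat2, the cytosolic acetoacetyl-CoA thiolase, has a near copy, Acat3, at 409 ± 58.7 CPM in chow-fed (SD, n = 7) and 311 ± 36.5 in vehicle mice (n = 7), and reads shared between both make the Acat2 values uncertain. In all, 10 of the 28 genes overlap a gene on the opposite strand.

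Within groups, mice that were high in 1 synthesis gene tended to be high in others. After removing group means, the median Pearson r over the 153 pairs of 18 synthesis enzymes (without Ggps1 and Lbr) was 0.49 across 77 mice, over all 378 pairs of the 28 genes 0.29, and between these and other genes 0.01. The closest pairs were Nsdhl with Dhcr7 (0.82), Lss with Dhcr7 (0.82), Idi1 with Cyp51 (0.80) and Acat2 with Fdps (0.80). Srebf2 had a median r of 0.43 with the other genes, Mvk of 0.13, Ebp of 0.05 and Ggps1 of 0.04. For Tmem97 it was -0.03 and for Mylip -0.11, with Mylip lowest against Ebp (-0.56). The spread within groups was widest for Sqle (SD 0.71 on the log2 scale), Mvd (0.64) and Aacs (0.63) and narrowest for Tmem97 (0.18). All values of a mouse share its library and its scaling factor.

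**Figure D5:**
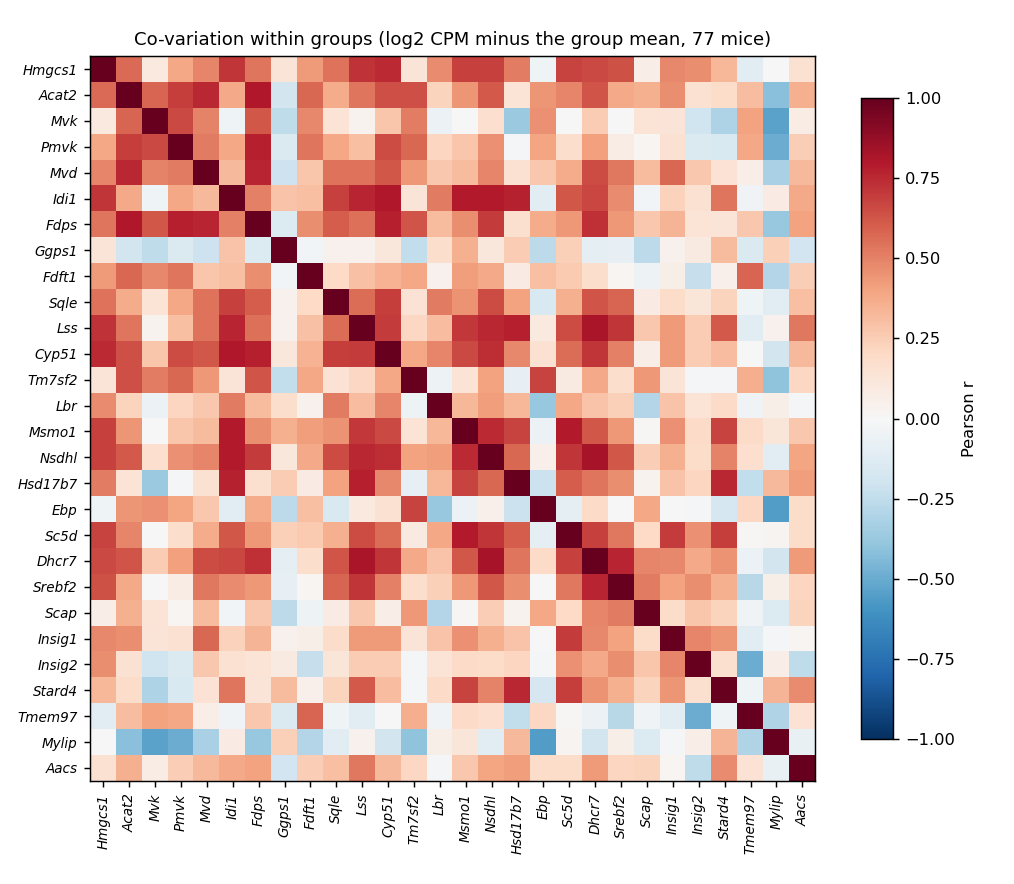
Pearson r (colour) between each pair of the 28 genes over 77 mice, on log2 CPM minus the group mean, with rows and columns in pathway order. Most pairs of synthesis enzymes show positive r, but Mvk and Ebp show r near or below 0 with several (-0.37 and -0.21 with Hsd17b7). Mylip and Tmem97 show low or negative r with many enzymes, and Ggps1 ranges from -0.26 to 0.36.

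Outside the 28 genes, those with the most similar pattern over the 77 mice, by Pearson r with the score, were Rdh11 (r = 0.98), a retinol dehydrogenase, Mmab (0.96), a gene of cobalamin metabolism that lies next to Mvk on the opposite strand, Acss2 (0.95), which makes acetyl-CoA from acetate, and Tlcd2 (0.94). Rdh11 was at 97.7 ± 21.2 CPM in chow-fed mice (SD, n = 7), 16.03 ± 3.19 with vehicle (n = 7), 19.7 ± 7.66 with semaglutide (n = 8) and 84.4 ± 16.7 after reversal (n = 8) at 24 weeks. Within groups its r with the score was 0.86. These r are a description over mice that share 2 diets.

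Other genes around the pathway moved less uniformly. Of all genes tested, 47.8% were called between vehicle and chow-fed mice (25.8% higher, 22% lower). The shares were 54.2% in the mean reversal effect and 41.4% in the mean semaglutide effect. Under library totals alone these shares were 63.9% and 49.8%. On that scale 1104 of 9529 and 955 of 7419 called genes were higher, so most calls were lower. Between vehicle and chow, the LXR, SREBP processing, receptor, isoprenoid and lipogenesis lists below had shares called near or under 47.8%. The number called in that comparison is therefore not read as a result about these lists. Their split between higher and lower calls was not tested. Of 15 LXR genes and targets, 7 were higher and 0 lower in vehicle than in chow-fed mice (13 and 0 under library totals alone), and 3 were higher and 8 lower on average with chow reversal (1 and 11). Their median log2 fold change was 0.34 for vehicle against chow, -0.47 for reversal and 0.19 for semaglutide, where 7 were higher and 4 lower (4 and 6). Cd5l, a macrophage secreted protein, was higher in vehicle mice at 3.33, Abcg1, a cholesterol exporter, at 2.76, and Abcg5, of the transporter that sends sterols into bile, at 1.43. Averaged over times, semaglutide lowered Cd5l (-0.55) and Abcg1 (-0.68) and raised Abcg5 (0.47), whereas reversal lowered all 3 (-2.30, -1.95 and -1.64). Of 17 genes tested for SREBP processing and degradation, 1 was higher and 6 lower in vehicle mice, with a median of -0.23 (4 and 0, median 0.20, under library totals alone), and 7 were higher and 3 lower with reversal (2 and 9). Rnf145, a ubiquitin ligase of the endoplasmic reticulum that is an LXR target, was higher (0.99), and Hsp90b1, a chaperone of the endoplasmic reticulum, was lower (-0.55), a call that was lost under library totals alone. Semaglutide raised 5 of the 17 on average and lowered 0. Under library totals alone it raised 0 and lowered 8, where 49.8% of all genes were called, most of them lower.

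Of 18 genes of sterol esterification, storage and trafficking, 6 were higher and 7 lower in vehicle than in chow-fed mice, with a median of -0.07 (11 and 1, median 0.35, under library totals alone). Soat1, which esterifies cholesterol, was higher (2.37), as was Gramd1b (2.89), a sterol carrier from the plasma membrane, and Lcat, which esterifies cholesterol in plasma, was lower (-0.85). Semaglutide lowered Soat1 (-0.68) and Gramd1b (-0.40) and raised Lcat (0.48) on average, and with chow reversal these stood at -1.44, -2.05 and 0.65. Of 9 oxysterol and bile acid entry enzymes tested, 7 were lower and 1 higher in vehicle mice (median -0.86), with Cyp7b1 at -2.26, Cyp8b1 at -1.29 and Cyp27a1 at -0.90. Semaglutide raised 6 and lowered 1 on average (3 and 1 under library totals alone), with Cyp7b1 at 0.79 and Cyp27a1 at 0.36 called and Cyp8b1 at 0.28 not.

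Of 11 genes of acetyl-CoA supply and lipogenesis, 2 were higher and 4 lower in vehicle than in chow-fed mice, with a median of -0.11 (4 and 2, median 0.32, under library totals alone). Acss2 (-2.29) and the citrate carrier Slc25a1 (-0.62, lost under library totals alone) were lower, and the desaturase Scd1 was higher (1.31). Chow reversal raised 6 and lowered 1 on average (4 and 3 under library totals alone). Semaglutide lowered 0 of the 11 and raised 0, 6 and 2 at 8, 16 and 24 weeks, where 2.24%, 6.44% and 10.8% of all genes were higher. Under library totals alone it raised 0, 3 and 0, where 154, 357 and 510 of 14904 genes were higher. On average it raised 5 (3 under library totals alone), where 19.7% of all genes were higher. Of 15 lipoprotein receptors and adaptors, 3 were higher and 3 lower in vehicle mice, with a median of 0.04 (9 and 0 under library totals alone). Cd36 (1.82) and Sorl1 (1.99) were higher, and semaglutide lowered both on average (-0.53 and -0.71). Lrpap1 was lower at -0.21, a sign that flipped under library totals alone (0.21). Of 15 genes of isoprenoid branches, 1 was higher and 3 lower in vehicle mice, with a median of -0.13 (8 and 0, median 0.29, under library totals alone). Srd5a3, of dolichol synthesis, was higher (0.71) and fell with semaglutide (-0.37) and reversal (-0.60), while Pdss2 (-0.60) and Rabggtb (-0.28) were lower, calls that were lost under library totals alone, where Rabggtb changed sign (0.15).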

How the data were processed

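Bulk RNA-seq was run on liver from 77 mice. The authors aligned reads with STAR 2.7.3a to GRCm38, quantified genes with Salmon 1.2.0 and checked quality with FastQC 0.11.9 and Picard. The authors deposited estimated counts per gene, of which 7.55% were not whole, and these were rounded to whole numbers. The annotation release and the strand setting are not given in the sources used here. Of 55487 genes, 260 had no symbol and held 0.0155% of counts. Groups followed the sample labels, and 0 columns were left unused.

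In R 4.3.3, edgeR 4.0.16 (with limma 3.58.1) fitted a quasi-likelihood model with 10 groups to all 77 libraries after filterByExpr, which kept 14904 genes, with TMM factors of 0.793 to 1.31 and a common dispersion of 0.066. Two-sided p-values were adjusted by the Benjamini-Hochberg method over all genes tested in each comparison. The mean effects average the contrasts of the 3 times. CPM were TMM-normalised, and log2 CPM used a prior count of 2. The steps were tested on simulated data. Python 3.11.15 was used for summaries. Alternatives were DESeq2 1.42.0, RLE size factors, library totals alone, no filter, only the groups compared, sets of 10 consecutive library numbers as a block, and leaving out libraries. Leaving out 1 library in turn and the motif TCACCCCA were chosen after seeing the data.

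The 28 genes, the other lists and the tests were chosen with earlier results of these data known. Values by mouse are given for the 8 of the 28 genes with the smallest p for the mean reversal effect and always for Srebf2, Scap, Insig1, Insig2, Stard4, Tmem97 and Mylip. At most 3 genes per other list were named, by smallest p for the mean reversal effect or for vehicle against chow, and at most 5 non-members by r with the score. Some genes picked by these rules are not reported here. Labels name separate mice, so the spread between libraries is between animals.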

Additional observations from a re-analysis of the deposited data

Results flagged for a closer look

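Of 160 groups of mice examined (15 genes and the score in 10 groups), 11 held a mouse far from the others by Dixon's ratio, where chance gives about 1 in 20. At 16 weeks of semaglutide, 1 mouse (replicate 2) had the highest Hmgcs1, 204 CPM against 109 for the next, and the highest Nsdhl, 40.2 CPM against 16.9. At 24 weeks of semaglutide, 1 mouse (replicate 3) was highest in Sqle (4.94 CPM against 1.31), Cyp51 (55.4 against 34.7) and the score over the 28 genes (-0.050 against -0.49). Other mice of that group had the lowest Scap (47.8 CPM against 76.1, replicate 8, a library of the second number series) and the lowest Insig2 (87.5 against 128, replicate 7). At 24 weeks of chow reversal, 1 mouse (replicate 8) was highest in Idi1 (914 CPM against 383) and Cyp51 (435 against 273). The same mouse had the lowest Insig1 of its group (127 CPM). Among vehicle mice, 1 had the highest Tmem97 at 16 weeks (80.5 CPM against 69.1) and 1 the lowest Mylip at 8 weeks (6.50 against 10.7).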

How the results depend on the processing

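The total number of the 28 genes called stayed within 1.5 times in vehicle against chow and in reversal against vehicle under every alternative run, though under library totals alone higher calls went from 1 to 2 in the former and lower calls from 1 to 2 in the latter at 24 weeks and from 2 to 3 at 8 weeks. The semaglutide counts at 8 and 16 weeks did not. At 24 weeks the 9 calls became 6 under library totals alone and 8 to 10 under the other alternatives. At 8 weeks the 2 calls became 1 under library totals alone, 0 with no low-count filter, 5 with only the groups compared and 1 without the vehicle library in a reversal place, and leaving out 1 library in turn gave 0 to 3 calls. At 16 weeks the 12 calls became 5 under library totals alone and 7 with only the groups compared, and 8 to 14 on leaving out 1 library. Of these calls Cyp51 was lost in 11, Fdps in 10 and Mvd in 10 of 16 refits, Ebp without semaglutide replicate 4 or vehicle replicate 6 and Nsdhl without semaglutide replicate 2 or vehicle replicate 4. Leaving out 1 library gave 8 to 10 calls at 24 weeks and 11 to 15 for the mean effect, in which Lss was lost in 5 and Tmem97 in 3 of 47 refits. With the library number set as a block, Cyp51 and Msmo1 were lost and Acat2 and Lss gained at 16 weeks. DESeq2 called 1 gene between vehicle mice of 24 and 8 weeks, Insig1. Under library totals alone the sign turned for Ggps1 in vehicle against chow (0.31) and in the mean reversal effect (-0.21), and for Lbr in vehicle against chow (0.046). The sterol element was in the promoter windows of 0 genes as SRE-1 with 1 free letter, of 1 gene with 2 free letters and of 2 genes as TCACCCCA. The cause of these changes was not tested. Over all genes tested, 1824 were called at 16 weeks of semaglutide against vehicle (713 with the block, 742 without the second number series, 533 with only the groups compared) and 857 at 8 weeks (558 with no filter, 547 without the vehicle library in a reversal place, 2115 with only the groups compared). With only the groups compared, calls went from 988 to 129 for reversal against chow, from 5379 to 3585 for reversal against vehicle at 24 weeks, from 918 to 2999, 1460 to 801 and 2457 to 515 for semaglutide against reversal at the 3 times, from 118 to 229 for vehicle over time, and from 32 to 8 and 9 to 4 for the change of the reversal and semaglutide effects. DESeq2 gave 59 and 16 for these last comparisons, and the block 3 for the change of the semaglutide effect. Semaglutide against reversal had 1527 calls at 8 weeks under library totals alone and 603 with no filter, and 869 at 16 weeks without the second number series. No paired analysis was possible because no label links a mouse of 1 group to a mouse of another. Depth limits low genes most: Sqle at 24 weeks of vehicle had a mean of under 2 CPM.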
